A study of Mus musculus with 2 samples.

Results

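Esrrb is the mouse gene for oestrogen-related receptor beta, an orphan nuclear receptor that binds DNA as a transcription factor and belongs to the network that keeps embryonic stem cells pluripotent. Its locus was described here for 5-hydroxymethylcytosine (5hmC), the base that TET enzymes make from 5-methylcytosine, in the mouse embryonic stem cell line E14. The members are the cytosines that the authors' table lists on chromosome 12 from 87682001 to 87883000 of mm9, a window fixed by position and not by any count. It holds 2689 of the 13025343 cytosines listed for the whole genome and 40329 of 176006227 reads. The window spans the gene body of 161 kb, taken from 87702001 to 87863000 with rounded edges on the plus strand, and a margin of 20 kb on each side. The gene body holds 2296 of the listed cytosines, the upstream margin 212 and the downstream margin 181. In the RefSeq gene order, Gpatch2l is the protein-coding gene before Esrrb and Vash1 the one after it.

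The study made 2 libraries, labelled replicates 1 and 2, of E14 DNA at passage 12. The labels name no genotype, treatment or control, and do not say whether the libraries came from separate cultures. In both, 100 ng of genomic DNA was glucosylated and cut with AbaSI, an enzyme that cleaves at a fixed distance from glucosylated 5hmC, and the cut ends were sequenced. The deposited table gives 1 read count per cytosine for both libraries together, so no value below has a replicate error and no test between samples could be made. The intervals given are exact 95% intervals for counting error alone, and neighbouring cytosines are not independent. "Listed" means that a cytosine has a line in the table, where the lowest count is 2. A cytosine without a line was not measured as 0.

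In embryonic stem cells, TET1 and TET2 oxidise 5-methylcytosine mainly at CG dinucleotides, and 5hmC is known from the bodies of active genes, from enhancers and from the edges of promoters. A CG reads the same on both strands, so each CG dyad offers one cytosine per strand, and either or both can carry 5hmC. The table lists the cytosines of the strands on separate lines. Cytosines followed by A, C or T, together called CH, carry little methylation in most tissues.

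The promoter is shown first because it is the stretch of the locus for which sequence was at hand and could be placed. The 300-base RefSeq sequence around the first annotated start (GRCm38.p6) was laid over the mm9 locus by its CG spacing, without use of its coordinates. Of the 121315 placements that held at least 3 listed cytosines, 12 had all of these on the matching dinucleotide, 11 cytosines in the best of them and 4 in the next. The sequence is of GRCm38.p6, and single bases could differ in mm9. The best placement puts the start of transcription at position 87702067 of mm9, 66 bases inside the rounded gene edge. The 250 bases before that start are on the plus strand of chromosome 12 from 87701817 to 87702066, with the listed CG dyads in capitals.

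Esrrb promoter: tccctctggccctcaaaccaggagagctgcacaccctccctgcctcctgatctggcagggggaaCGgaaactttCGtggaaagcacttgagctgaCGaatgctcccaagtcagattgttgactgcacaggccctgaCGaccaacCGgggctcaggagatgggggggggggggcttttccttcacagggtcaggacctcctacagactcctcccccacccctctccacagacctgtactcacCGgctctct

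All 6 CG dyads of these 250 bases were listed, and so was the seventh of the RefSeq sequence, 17 bases after the start. The placement was chosen by its match to listed cytosines, so full listing is in part fixed by that choice, and the share of CG dyads listed elsewhere in the gene was not measured here. Of the 7 dyads, 4 were listed on both strands, and together their 11 listed cytosines carried 296 reads. The first capital CG, at -186 from the start, had 7 reads on the plus strand and was not listed on the minus strand. The second, at -176, had 51 reads on the plus and 30 on the minus strand, and the third, at -155, had 40 and 51. These were the dyads with the most reads in the promoter.

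The fourth dyad, at -114, was listed on the plus strand alone with 14 reads, and the fifth, at -106, had 8 and 5 reads. Reads were lower there than at the dyads at -176 and -155. The sixth dyad, 9 bases before the start, again had 20 reads on the plus and 31 on the minus strand. The dyad at 17 bases after the start had 39 reads on the plus strand and was not listed on the minus strand. A second RefSeq start of Esrrb also has 7 CG dyads in its 300 bases, but the best match of its spacing had 4 cytosines at several places in the locus, so it could not be placed.

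The promoter holds a pair of equal counts. With 51 reads each, the plus-strand cytosine at 87701891 and the minus-strand cytosine at 87701913 are 22 bases apart and both have the authors' class code 2CG. Sites of this class mostly come as pairs at about this distance with equal counts, and AbaSI is known to cut between a modified cytosine and another cytosine on the opposite strand. Whether both cytosines of such a pair were read from the same fragments was not tested, and the split of reads between strands depends on it. In the printed sequence this pair is the C of the second capital CG and, on the opposite strand, the G of the third.

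**Figure D1:**
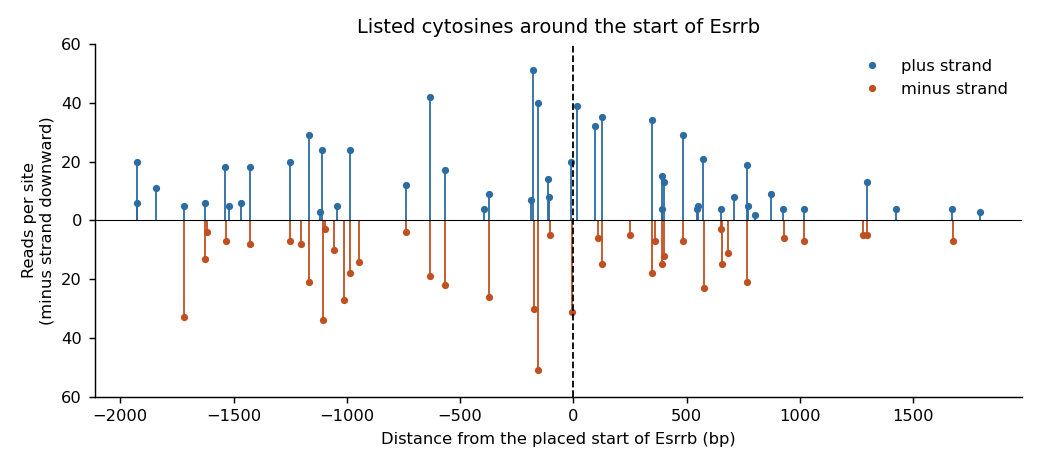
Reads at each listed cytosine from 2000 bases before to 2000 bases after the placed start of Esrrb (x axis, bases; y axis, reads per site, plus strand upward and minus strand downward; 1 pooled count per site). Sites are frequent on both sides of the start and become sparse and low from about 1000 bases after it.

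The start of Esrrb lies in a stretch with many listed cytosines on both sides. From 1 kb before to 1 kb after the placed start there were 54 listed cytosines with 914 reads and a median of 14.5 reads. The highest count there was 51. The step of 500 bases before the start held 13 sites with 296 reads, and the step after it 16 sites with 286 reads. From 1 to 3 kb after the start the number fell to 18 sites with 128 reads and a median of 5. In the 8 kb that end 2 kb before the start, 78 sites had a median of 9 reads. The plot of reads around the start shows this drop inside the gene.

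The gene body as a whole was richer in listed cytosines than its surroundings. It had 14.3 sites per kb (13.7 to 14.9), against 10.8 (10.6 to 11.01) in the flanks of 500 kb on each side of the window. The upstream margin had 10.6 sites per kb (9.22 to 12.1), within counting error of the flanks, and the downstream margin had 9.05 (7.78 to 10.5), slightly below them. The ratio of gene body to flanks was 1.32 (1.26 to 1.38) for sites and 1.43 (1.41 to 1.45) for reads, with 218.9 reads per kb in the gene and 153.1 in the flanks. Counted as CG dyads, the ratio was 1.28 (1.21 to 1.35).

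Such a ratio is common along the genome. Of 14819 autosomal windows of 161 kb, set against their own flanks at the same distances, 18.9% had a ratio of sites at least as high as Esrrb and 17.4% had a ratio of reads at least as high. The median window had a ratio of 0.93 for sites, and the top 5% began at 1.83. A ratio of this size is therefore not particular to Esrrb. The flanks differed from each other too. The upstream flank had 139.0 reads per kb and the downstream flank 167.2, so the gene body had 1.57 times the reads of the former and 1.31 times those of the latter.

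In absolute terms the whole neighbourhood was rich in listed cytosines. Chromosome 12 had 4.55 sites and 57.4 reads per kb, and the gene body had 3.13 and 3.81 times as many. Of the 728 windows of gene length on chromosome 12, 18 (2.47%) had as many sites per kb as Esrrb and 16 (2.20%) as many reads. Over the 19 autosomes 4.28% of windows had as many sites and 4.90% as many reads, and 2.92% and 2.72% when chromosomes 8 and 11 were left out. The number of CG dyads in the sequence of these windows was not used here, so density of listed sites and density of CG cannot be told apart.

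**Figure D2:**
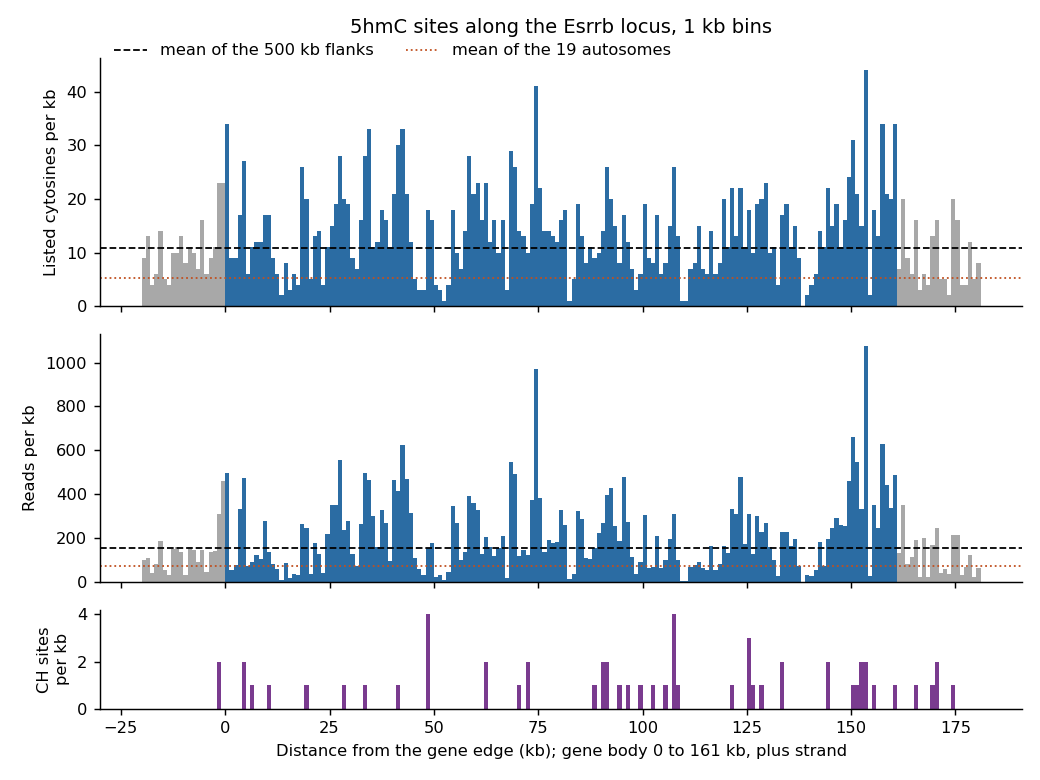
Listed cytosines per 1 kb bin (top), reads per bin (middle) and CH sites per bin (bottom) along the Esrrb locus, by distance in kb from the gene edge; the gene body is blue, the margins of 20 kb are grey, and lines mark the mean of the 500 kb flanks and of the 19 autosomes. The densest bin, with 44 sites and 1076 reads, lies at 153 to 154 kb, and 1 bin of the gene body, at 138 to 139 kb, holds no listed cytosine.

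Listed cytosines ran along the whole gene with few bare places. Of the 161 bins of 1 kb in the gene body, 160 held at least 1 site and 1 held none (0.621%, 0.0157 to 3.41). Empty bins made up 2.10% of the flanks and 27.3% of all autosomal bins. At least 10 sites were found in 111 bins of the gene (68.9%, 61.2 to 76.0), against 49.1% (46.0 to 52.2) in the flanks and 20.1% on the autosomes. The median bin had 13 sites in the gene (quartiles 8 and 19), 9 in the flanks and 3 on the autosomes. With 20 sites or more there were 37 bins, or 23.0%, against 12.5% in the flanks.

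**Figure D3:**
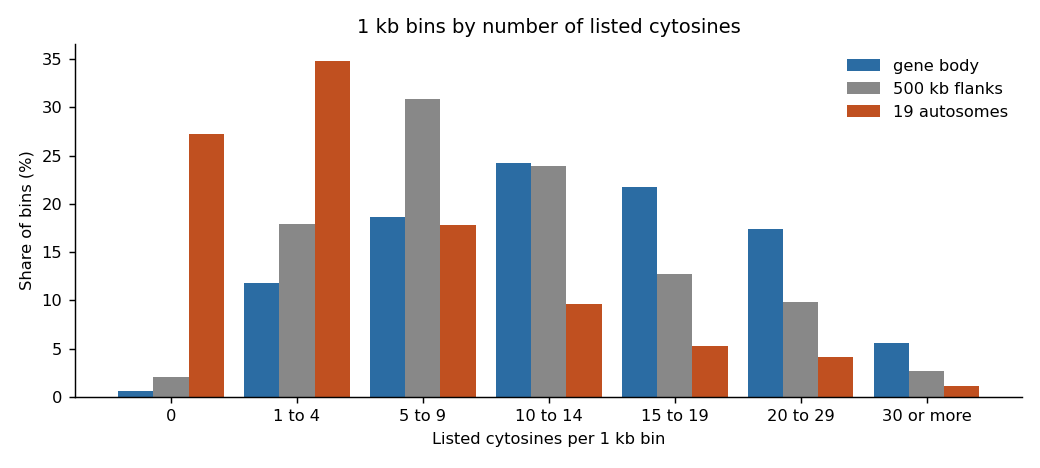
Share of 1 kb bins (y axis, percent) by the number of listed cytosines in the bin (x axis) for the 161 bins of the Esrrb gene body, the 1000 bins of the flanks and all autosomal bins. The gene body has its largest share at 10 to 14 sites (24.2%), the flanks at 5 to 9 (30.9%) and the autosomes at 1 to 4 (34.8%).

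The 10 bins with the most sites in the locus held 343 sites. All lay in the gene body, which makes up 161 of the 201 bins ranked, so most would fall there in any case. They made up 6.21% of its bins and 18.1% of its reads. The bins were picked for their many sites, so the larger share of reads follows in part from that choice. First came the bin from 87855001 to 87856000, 153 kb into the gene, with 44 sites and 1076 reads. Only 0.127% of autosomal bins had as many sites. The bin from 87776001 to 87777000, at 74 kb, followed with 41 sites and 971 reads, and 0.202% of autosomal bins had as many. The flanks held bins of similar density, with up to 41 sites upstream and 42 downstream. The bins at 153 and 74 kb of the gene also had the highest mean counts of the 10, with 24.5 and 23.7 reads per site.

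The other 8 bins had 29 to 34 sites and 412 to 660 reads each. Of the bins with 34 sites, one was the first kilobase of the gene body, which holds the start, with 497 reads, and one was the last, from 87862001 to 87863000, with 489 reads. The third, at 157 to 158 kb, had 628 reads. Bins with 33 sites lay at 34 to 35 kb and at 42 to 43 kb. The bins at 150 to 151 kb, 41 to 42 kb and 68 to 69 kb completed the set with 31, 30 and 29 sites. The first and last kilobase of the gene body were thus among its densest. At the end of the gene the next bin outside had 7 sites, and the bin after that had 20 sites and 352 reads. At the start the bin outside had 23 sites and 459 reads, and the larger drop was inside the gene, to 9 sites and 52 reads at 1 to 2 kb.

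Bins with 10 sites or more, 111 of the 161 in the gene body, formed 24 runs. With so many such bins, runs arise in any order, and no count of runs in the flanks is given. The longest was 14 kb, from 87770001 to 87784000, with 261 sites and 4417 reads. Runs of 13 kb lay from 87734001 to 87747000 with 262 sites and from 87821001 to 87834000 with 210 sites. A run of 12 kb from 87844001 to 87856000 ended with the densest bin. Between them the profile sank, most widely from 87713001 to 87720000, where 7 successive bins held 38 sites and 312 reads. The richer bins also had more reads per site, with a Spearman correlation of 0.47 across the 160 bins with a site. This is a description within 1 pooled library set, and bins are not replicates. The number of listed sites and the reads per site both depend on read depth, since the lowest listed count is 2. The part of depth in this correlation was not tested.

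In steps of 10 kb, the 16 full steps of the gene body ranged from 9.20 to 21.9 sites per kb with a median of 14.5. Of these steps, 13 were above the median of the 100 steps of the flanks, 10.45 sites per kb, and 12 were above the flanks' median for reads. The gene and flanks overlapped widely, since flank steps reached 20.9 sites per kb. The last full step, from 150 to 160 kb, stood highest with 219 sites and 464.6 reads per kb, above the highest flank step at 367.2 reads per kb. The step from 110 to 120 kb was lowest with 92 sites and 82.0 reads per kb. The step from 10 to 20 kb was the next lowest for reads, with 95.6 per kb.

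**Figure D4:**
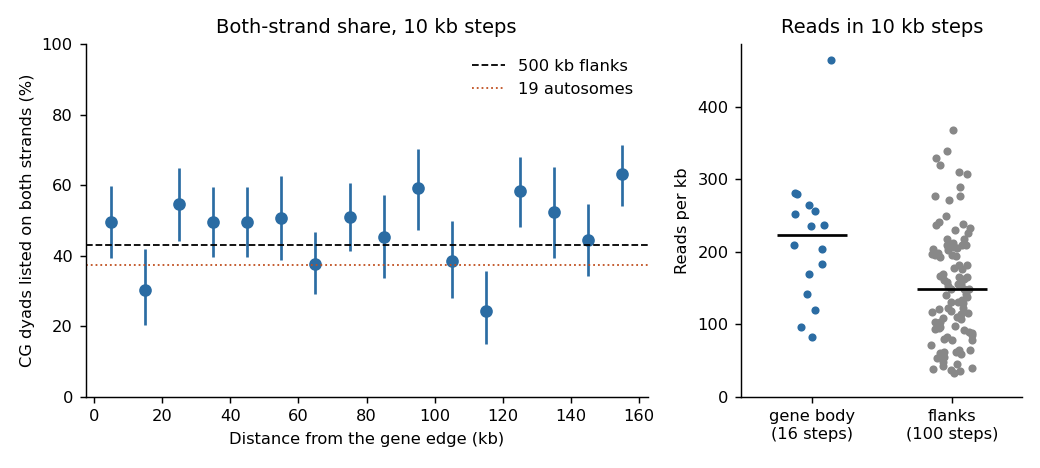
Left, share of CG dyads listed on both strands (y axis, percent, with exact 95% intervals) in the 16 full steps of 10 kb along the Esrrb gene body (x axis, kb from the gene edge), with lines for the flanks and the autosomes; right, reads per kb in these steps and in the 100 steps of the flanks, with medians as bars. The share runs from 24.3% to 63.1%, and the step with the highest share also has the most reads.

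Gaps between successive listed cytosines were short. The median distance was 23 bases in the gene body, 28 in the flanks and 35 on the autosomes, and the 90th percentile was 195, 254 and 407 bases. Neighbours at a distance of 1 base, mostly the opposite strands of 1 CG, made up 31.9% of the distances in the gene and 29.4% in the flanks. Gaps of 1 kb or more numbered 4 of 2295 in the gene body (0.174%), 56 of 10805 in the flanks (0.518%) and 3.43% of all autosomal distances.

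The longest gap of the locus was 1742 bases, with no listed cytosine from 87811082 to 87812822, about 109 kb into the gene. The next spanned 1571 bases from 87839984 to 87841553 and contains the one empty bin. The gap of 1190 bases from 87753805 to 87754993 and the gap of 1009 bases from 87783631 to 87784638 are also in the gene body. The gap of 1135 bases from 87874329 to 87875462 lies in the downstream margin. Of all autosomal distances, 1.64% were as long as the longest of these. How far reads can be mapped in these gaps, and whether they hold any CG, was not examined here.

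Both strands of a CG were listed more often in the gene than around it. Of 1517 CG dyads with a listed cytosine in the gene body, 729 were listed on both strands, which is 48.1% (45.5 to 50.6). The share was 42.9% (41.8 to 44.0) in the flanks, 35.2% on chromosome 12 and 37.4% on the autosomes. The upstream flank had 40.01% (38.4 to 41.6) and the downstream flank 45.8% (44.2 to 47.4), and the interval of the latter overlaps that of the gene. CG sites had a median of 12 reads in the gene, 10 in the upstream flank and 12 in the downstream flank. The gene and the downstream flank thus had the same median, with shares of 48.1% and 45.8%.

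The share was also computed among dyads with many reads. Where the stronger strand had at least 20 reads, 368 of 507 dyads in the gene were listed on both strands, or 72.6% (68.5 to 76.4). In the flanks this was 68.9% (66.8 to 71.0), an interval that overlaps the gene's, and on the autosomes 66.8%. The part of read depth in the difference between gene and flanks was not tested. Along the gene the share of all dyads was lowest at 110 to 120 kb, with 24.3% (15.1 to 35.7), and at 10 to 20 kb, with 30.3% (20.2 to 41.9). It was highest at 150 to 160 kb, with 63.1% (54.2 to 71.4). The steps at 110 to 120 kb and 10 to 20 kb also had the fewest reads, and the step at 150 to 160 kb had the most. Some steps between these departed from that order. The step with the next fewest reads, at 130 to 140 kb with 120.2 per kb, had a share of 52.4%. The step at 60 to 70 kb, with 235 reads per kb, had 37.6%.

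Neither strand was favoured along this plus-strand gene. The plus strand held 1162 of 2296 sites, or 50.6% (48.5 to 52.7), and 50.7% of the reads. Of the dyads listed on 1 strand, 413 were on the plus and 375 on the minus strand, with a median of 10 reads, while the strands of dyads listed on both had a median of 13. In the 729 dyads on both strands, the plus strand had more reads in 338, the minus strand in 367, and counts were equal in 24. The strands differed by more than 3-fold in 164 dyads, or 22.5% (19.5 to 25.7), against 20.8% (19.4 to 22.2) in the flanks. The Spearman correlation of the strands' counts was 0.22 over these dyads, a weak relation.

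**Figure D5:**
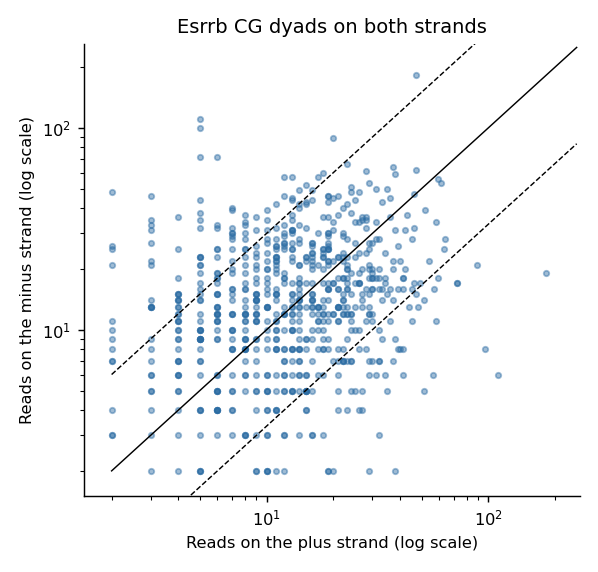
Reads on the plus strand (x axis) against reads on the minus strand (y axis), both on log scales, for the 729 CG dyads of the Esrrb gene body listed on both strands; the solid line marks equal counts and the dashed lines a 3-fold difference. Of the points, 164 lie outside the dashed lines, on both sides.

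The dyads with the most reads differed in how these were split. The dyad at 87855328 had 47 reads on the plus and 182 on the minus strand, and the dyad at 87855307 had 182 and 19. They lie in the densest bin, and the counts of 182 belong to 1 pair of 2CG cytosines 22 bases apart, at 87855307 and 87855329. The dyad at 87746374 had 111 and 6 reads, and the one at 87746395 had 5 and 110. The counts of 111 and 110 are also on opposite strands 22 bases apart, at 87746374 and 87746396, with the class codes CGCH and 2CG. Whether they were read from the same fragments was not tested. The dyad at 87711711 was balanced, with 59 and 56 reads. Among the 5 dyads with the most reads, it was the only one without a several-fold difference between its strands.

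Some dyads with many reads were listed on 1 strand alone. The highest was at 87757137 with 94 reads on the plus strand, and the next at 87797156 with 79 and at 87742242 with 70, also on the plus strand. The 5 CG sites with the most reads were 87855307 and 87855329 with 182 reads each, 87746374 with 111, 87746396 with 110 and 87757159 with 100. The quartiles of CG sites in the gene body were 7 and 20 reads, so these sites stood far above the bulk.

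The class 2CG, whose sites are mostly paired, held 163 sites of the gene body, or 7.10% (6.08 to 8.23), and 11.4% of its reads. In the flanks it held 7.68% of the sites (7.18 to 8.20) and 13.7% of the reads. Of the 79 plus-strand 2CG cytosines in the gene, 69 had a minus-strand partner of the same class 21 to 25 bases to the right, and 61 of these pairs had exactly equal counts. The pair with 182 reads led, followed by the pair at 87776367 and 87776389 with 89 reads, which lies in the second densest bin. Over the whole locus with its margins, the promoter pair with 51 reads, which lies in the upstream margin, was the seventh. The codes 1CG and CGCH, whose meaning the sources used here do not state, took 37.4% and 53.3% of the sites.

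CH cytosines were rare at Esrrb. The locus had 57 of them, 50 in the gene body, 2 in the upstream and 5 in the downstream margin. In the gene body they were 2.18% of the sites (1.62 to 2.86), against 2.59% (2.30 to 2.91) in the flanks, 5.76% on chromosome 12 and 5.99% on the autosomes. Per length the values lay closer together, with 0.311 CH sites per kb in the gene, 0.280 in the flanks and 0.319 on the autosomes. The gene value rests on 50 sites and no interval was computed, so no order is read from these densities. Per length, then, CH sites were about as frequent in the gene as on the autosomes, while CG sites were more frequent. CH sites had 0.621% of the reads of the gene body.

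Most CH counts were near the lowest listed value. They ran from 2 to 17 reads with a median of 4, and 55 of the 57 had under 10 reads. The highest, with 17 reads each, were a CA cytosine at 87855976 on the plus strand and a CT cytosine at 87855998 on the minus strand, 22 bases apart in the densest bin. A CT cytosine at 87810013 had 9 reads, a CA cytosine at 87853348 had 8 and a CA cytosine at 87735383 had 7. All others had 6 reads or fewer.

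By context, 36 of the 57 were CA (63.2%, 49.3 to 75.6), 15 were CT and 6 were CC. In the gene body alone 35 of 50 were CA (70.0%, 55.4 to 82.1). The CA share was 55.7% in the flanks and 52.3% on the autosomes. Both lie within the interval of the locus, but the autosomal share lies below that of the gene body. The intervals treat CH cytosines as independent, although many come in the pairs of equal counts given next, so no difference in CA share is read from them. The class 2CH held 40 of the 57, and in the locus 16 of its 17 plus-strand cytosines had a partner 21 to 25 bases away, all 16 with equal counts. In the flanks 66.4% of the CH sites were 2CH, and 64 of 89 plus-strand 2CH cytosines had such a partner. They fell into 38 of the 201 bins, with at most 4 in a bin, at 48 to 49 kb and at 107 to 108 kb. Their median distance to the nearest listed CG cytosine was 26 bases, and 45 of the 57 had one within 100 bases (78.9%). In the flanks, where listed cytosines were sparser, the median was 40 bases and 210 of 280 had one within 100 bases.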

How the data were processed

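The 2 E14 libraries (1 group) were glucosylated, AbaSI-digested, captured, amplified for 16 PCR cycles and sequenced, per the labels' protocols. CASAVA 1.8.2, Bowtie and the build mm9 are named in the submitters' processing notes. The filters, the treatment of PCR copies, the joining of the libraries and the rule from cut to cytosine are not stated there. The values are whole-number read counts per cytosine, deposited by the authors unscaled in 1 column for both libraries. The reads carry no molecular identifiers and may include copies of 1 molecule, so intervals cover counting error only.

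All sites were kept. Positions are 1-based. Bins of 1 kb and steps of 10 kb were counted from the gene edge. A plus-strand CG cytosine and a minus-strand one 1 base to its right formed a dyad. Shares have Clopper-Pearson intervals, densities exact Poisson intervals, and ratios of densities the exact conditional interval. Autosomal windows of 161 kb were tiled end to end. Simulated data with 39.96% of 20000 dyads on both strands gave back 39.96%. No mm9 sequence or annotation was used, so exons and CG content are not described. The RefSeq promoter was placed by matching dinucleotides. The named bins, gaps, sites and dyads follow a fixed rule of rank (10 bins, 5 of each other kind). The gene, the window and these rules were chosen with earlier results of these data known; the promoter placement and the pairs by offset were added after the values were seen. Python 3.11.15, numpy 2.4.6, pandas 2.3.3 and scipy 1.17.1 were used.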

Additional observations from a re-analysis of the deposited data

How the results depend on the processing

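Of 56 values under 12 alternatives for 9 results, 35 stayed within the counting interval of the main value and 21 moved, and every ratio stayed above 1. The ratio of reads with each dyad counted once could not move, since it sums the same reads, and the longest gap has no interval, so any change counted. The ratio of gene body to flanks was 1.46 for sites and 1.49 for reads at a minimum of 10 reads, and 1.26 and 1.41 with flanks of 250 kb. For reads it was 1.57 against the upstream and 1.31 against the downstream flank, 1.37 with the gene shortened by 5 kb at each end, 1.47 without the 2CG and 2CH classes and 1.45 with their reads at a weight of 0.5. At minimums of 5 and 10 reads, dyads on both strands made up 43.3% and 34.0%, CH sites 0.739% and 0.143%, and the longest gap was 2135 and 2513 bases. At 10 reads the median CG count was 17, empty bins were 4.97% and bins with at least 10 sites 39.1%. A minimum removes sites by construction. Without the 2CG and 2CH classes, dyads on both strands were 45.3% and CH sites 0.715%. Bins with at least 20 sites were 23.0%. The plus-strand share stayed between 50.1% and 51.0%. No paired analysis was possible because the table pools both libraries, and for the same reason none without a replicate was run.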
